A study of Mus musculus with 2 samples.

Results

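The Wnt ligands, their receptors, secreted antagonists and intracellular effectors were followed in RNA-seq of mouse back skin. Genes were taken by name (Wnt, Fzd, Sfrp and Dkk genes, and 16 further pathway genes fixed by symbol), with more than 3 counts in at least 1 library. Of 53 names, 51 met this limit, among 16255 such genes in a table of 24421 symbols. Wnt9b (4 and 4 counts), Dkk4 (5 and 0) and Dkk1 (2 and 7) lay just above the limit in control and stretched skin, while Wnt1 (0 and 1) and Wnt8b (0 and 0) lay below it. The study asked how a skin-stretching device acts on the resting hair follicle, with WNT as an activator of the hair cycle. One library, called control, came from non-stretched whole-layer skin, and the other, called stretched, from whole-layer skin stretched for 5 days, with 33% strain in the labels and, in the methods, a strain raised daily from its initial value. Wild-type C57BL6/J mice gave both, and the methods describe female animals 8 weeks of age whose hairs were in telogen, the resting phase. How many animals each library holds is not given in the sources used here.

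Wnt proteins are lipid-modified signals that bind Frizzled receptors together with Lrp5 or Lrp6. Binding halts the destruction of β-catenin, which then acts in the nucleus with factors of the Tcf and Lef family, whereas other Wnt signals act on cell polarity and movement without β-catenin. In the hair follicle, Wnt signals start the growth phase, called anagen, and drive the hair matrix to form the shaft, while secreted antagonists from the dermis and the follicle hold them in check.

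The control library holds 14152379 counts and the stretched library 11648655, so 3 counts correspond to 0.212 and 0.258 CPM (the count scaled by the library's total). With 1 library per condition there is no replicate check, no p-value is given, and each interval (95%, Clopper-Pearson) covers counting error only. Fold changes are log2 ratios of CPM, stretched over control, and their median over all 16255 genes was -0.12. TMM scaling adds 0.10 and median-of-ratios scaling 0.11 to every value. Hair follicle genes differed strongly between the libraries. All 15 genes of a list for the hair matrix, hair shaft and inner root sheath were lower in stretched skin, by log2 fold changes from -4.32 to -1.65. The 4 inner root sheath keratins among them (Krt25, Krt27, Krt71 and Krt73) summed to 8455 CPM in control and 1564 CPM in stretched skin, and the other 11 genes to 1822 and 268.7 CPM. Krt71, a keratin of the inner root sheath of growing follicles, had 60382 counts in control and 8796 in stretched skin. Such genes are known as markers of growing rather than resting follicles, whereas the methods describe telogen skin and left out mice with any focal anagen. No reference level of telogen skin is at hand, and the hair cycle phase of each library was not tested. With 1 library per condition, stretching and hair cycle phase cannot be told apart. In bulk skin, fewer cells of a type and less RNA per cell cannot be told apart.

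Most of the Wnt pathway genes were lower in stretched skin, and of the 8 genes with an interval wholly above 0, 5 were secreted antagonists. Of the 51 genes, 36 had a lower value, where 61.5% of all measured genes did, and 15 a higher one, with a median log2 fold change of -0.48. The interval lay wholly below 0 for 29 genes (56.9%), where 33.5% of all measured genes did so, and wholly above 0 for 8 genes (15.7%), against 18.1% of all. With TMM scaling Axin1, Lrp5 and Wnt4 passed to values above 0, the numbers of intervals below and above 0 were 25 and 9, and the shares of all genes became 24.1% below and 24.1% above. Few members were thinly counted, with 4 of 51 under 20 counts over both libraries. Among genes with at least 20 counts, 36.5% had intervals below 0 and 19.3% above. A difference of 2-fold or more was reached by 9 genes on the lower side (17.6%, against 5.47% of all genes) and by 5 on the higher side (9.80%, against 6.32%).

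**Figure D1:**
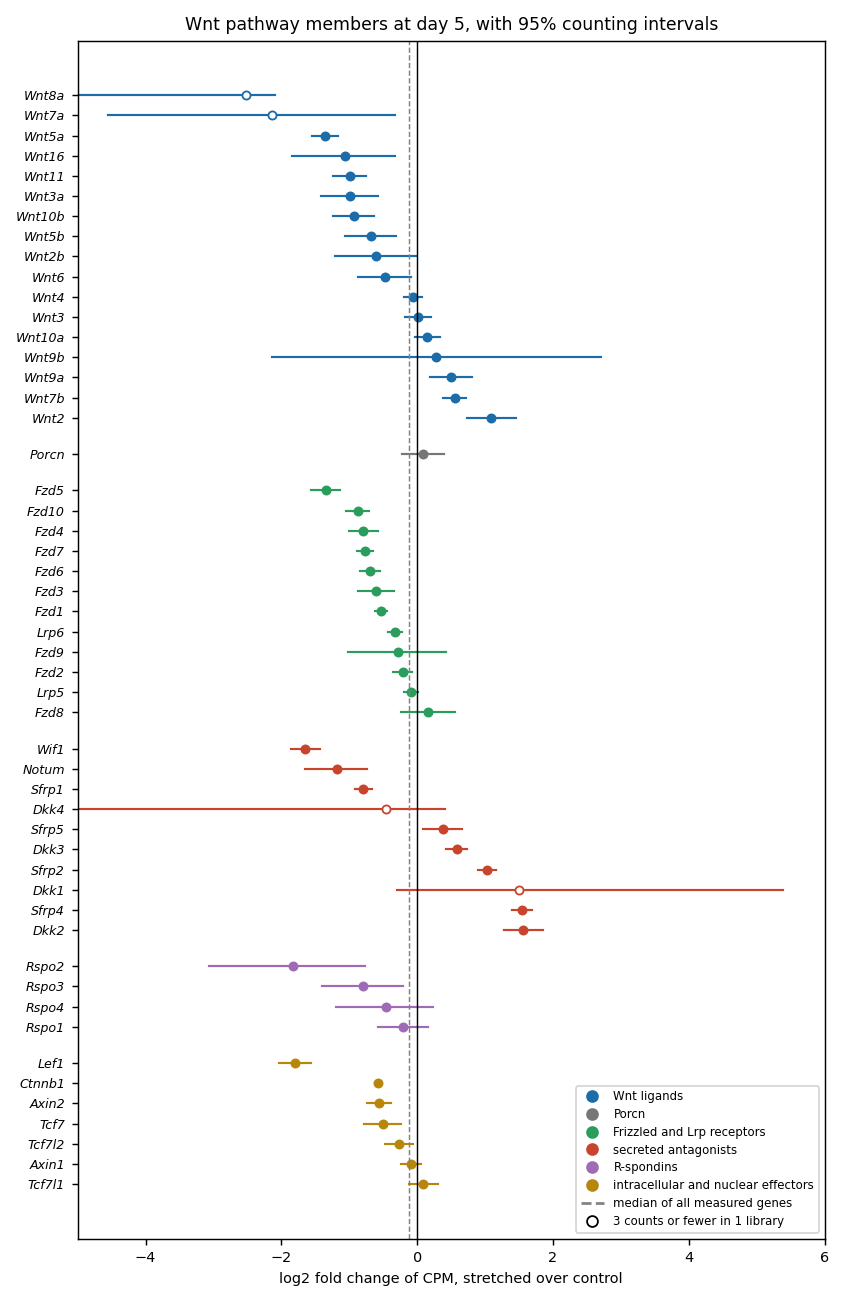
Log2 fold change of CPM in stretched over control skin (x axis) for the 51 genes, grouped by role, with 95% counting intervals. Lines that reach the left edge go on beyond it, open points have 3 counts or fewer in 1 library, and the dashed line is the median of all measured genes (-0.12); receptors and effectors lie mostly left of it, while antagonists lie on both sides.

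By a form of the rule of the methods, which asks for a product of both FPKM values (EV, each with 1 added here) above 10 and a ratio that reaches 2 or falls to 0.5, 38 of the 51 genes passed the EV filter. FPKM is here the CPM value divided by exon length in kilobases, whereas the methods took FPKM from Cufflinks. Lef1, Wif1, Wnt5a and Fzd5 were downregulated and Dkk2 and Sfrp4 were upregulated, while 2.43% of all genes past the EV filter were downregulated and 2.61% upregulated. The methods state no added value. With 0 added in place of 1, 4 genes were upregulated (Dkk2, Sfrp2, Sfrp4 and Wnt2), as were 2.95% of all genes past that EV filter, and Lef1, Wif1, Wnt5a and Fzd5 were downregulated, as were 2.85% of all. Sfrp2, at 1.99-fold with 1 added to both FPKM values and 2.03-fold without, also became upregulated with each of the 4 other scalings. With an EV limit of 100, Wif1 was the 1 downregulated gene and Sfrp4 the 1 upregulated gene. The share of all genes called at that limit was not computed.

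The sequences of the promoters of these genes are shown to place the largest differences on the genome. RefSeq windows (GRCm38.p6) of 300 bases, each ending 50 bases after a transcript start, were found for 32 of the 51 genes. Among the 6 called genes they exist for Lef1, Wif1, Fzd5 and Dkk2, and Wnt11, whose CPM was close to 2-fold lower, was added because its window holds a Tcf/Lef core. The core was searched as CTTTGA and CTTTGT on both strands and is in capitals. TATAAA, the letters of a TATA box, was searched likewise and lies in 13.6% of all windows and in 9 of the 41 windows of these genes (21.95%). Counting only the most upstream window of each of the 32 genes, it lies in 5 (15.6%). The windows are chr3:131110047-131110346 on the plus strand, chr10:121033754-121034053 on the plus strand, chr1:64737701-64738000 on the minus strand, chr3:132085042-132085341 on the plus strand and chr7:98834862-98835161 on the plus strand. Lef1 has 4 windows and Wnt11 has 2, of which the most upstream is printed.
Lef1: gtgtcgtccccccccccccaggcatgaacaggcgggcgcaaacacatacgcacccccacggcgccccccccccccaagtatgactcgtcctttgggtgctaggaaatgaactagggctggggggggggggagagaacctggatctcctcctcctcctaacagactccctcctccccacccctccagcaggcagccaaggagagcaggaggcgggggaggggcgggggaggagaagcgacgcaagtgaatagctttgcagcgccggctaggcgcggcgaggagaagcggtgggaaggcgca
Wif1: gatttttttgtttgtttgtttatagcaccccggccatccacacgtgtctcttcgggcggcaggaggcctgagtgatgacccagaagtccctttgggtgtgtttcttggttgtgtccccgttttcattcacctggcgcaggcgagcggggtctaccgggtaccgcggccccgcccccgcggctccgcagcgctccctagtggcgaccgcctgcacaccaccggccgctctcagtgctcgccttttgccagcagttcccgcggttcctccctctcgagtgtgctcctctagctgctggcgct
Fzd5: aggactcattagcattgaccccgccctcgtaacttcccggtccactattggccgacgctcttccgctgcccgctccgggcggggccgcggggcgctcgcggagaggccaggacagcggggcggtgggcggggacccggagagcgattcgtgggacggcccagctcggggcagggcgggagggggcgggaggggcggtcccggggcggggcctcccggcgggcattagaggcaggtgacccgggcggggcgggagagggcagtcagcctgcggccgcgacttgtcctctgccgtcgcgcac
Dkk2: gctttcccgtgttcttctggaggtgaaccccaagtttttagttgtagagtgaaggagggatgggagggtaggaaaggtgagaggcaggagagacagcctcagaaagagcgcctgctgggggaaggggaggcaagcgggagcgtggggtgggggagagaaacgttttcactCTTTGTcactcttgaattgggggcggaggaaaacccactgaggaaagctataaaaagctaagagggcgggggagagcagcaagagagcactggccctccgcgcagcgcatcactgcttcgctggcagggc
Wnt11: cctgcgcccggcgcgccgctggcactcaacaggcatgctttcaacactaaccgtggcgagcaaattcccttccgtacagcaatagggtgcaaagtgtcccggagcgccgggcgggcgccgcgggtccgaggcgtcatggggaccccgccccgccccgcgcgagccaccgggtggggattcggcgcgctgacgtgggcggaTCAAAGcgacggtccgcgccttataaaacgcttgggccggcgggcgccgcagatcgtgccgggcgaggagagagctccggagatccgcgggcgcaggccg

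The Dkk2 window holds CTTTGT from base -80 and TATAAA from base -32 before the start, the Wif1 window holds TTTATA from -232, and the Wnt11 window holds TCAAAG from -50 and TATAAA from -29. No core was found in the printed windows of Lef1, Wif1 and Fzd5, and Lef1 has other windows that are not described here. The 32 genes have 41 windows, of which 10 held a core (24.4%), against 31.2% of all 32851 promoter windows. Those 10 windows belong to 10 genes, and the core lay in the most upstream window of 7 of them (Dkk1, Dkk2, Fzd1, Fzd7, Tcf7l1, Wnt11 and Wnt3). The GC content of the 32 windows had a median of 71.2%, above the median of 52.7% over all windows.

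Of the 17 measured Wnt ligands, 11 had a lower value in stretched skin (64.7%, near the 61.5% of all measured genes). The interval was below 0 for 10 (58.8%, against 33.5% of all genes) and above 0 for 3 (17.6%, near the 18.1% of all genes), and the median log2 fold change was -0.60. Wnt5a, a ligand known mostly for signals without β-catenin, had 928 counts in control and 298 in stretched skin. Its level was 8.38 and 3.27 FPKM, and its log2 fold change was -1.36 (interval -1.55 to -1.17). It lies on chromosome 14 of mm10 from 28504750 to 28527448. Wnt11, another ligand of this kind, had 497 and 205 counts (-0.997, interval -1.24 to -0.76). Wnt10b, a β-catenin-dependent ligand of the hair follicle, had 312 counts in control and 134 in stretched skin (-0.94, interval -1.24 to -0.64). Wnt3a, which also signals through β-catenin, had 166 and 69 counts (-0.99, interval -1.41 to -0.57). These 4 ligands were thus lower by 1.92-fold to 2.56-fold.

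Wnt5b (177 and 91 counts), Wnt2b (72 and 39) and Wnt6 (152 and 90) had smaller differences, with log2 fold changes of -0.68, -0.60 and -0.48. The intervals of Wnt2b and Wnt6 included 0 with TMM scaling. Wnt16 was measured on few reads, with 56 counts in control and 22 in stretched skin (-1.07, interval -1.85 to -0.33). Wnt7a had 16 and 3 counts, a log2 ratio of -2.13 with a wide interval (-4.56 to -0.33). Wnt8a had 21 counts in control and 0 in stretched skin, at least 5.76-fold lower against the floor of 3 counts. Counting error in both libraries allows a log2 fold change of up to -2.10 for it, and 1 CPM added to both values gives -1.31. Wnt16, Wnt7a and Wnt8a stayed under 1 FPKM in both libraries.

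Wnt2, a ligand best known from mesenchyme, was the ligand with the largest higher level in stretched skin. It had 102 counts in control and 179 in stretched skin, or 3.20 and 6.81 FPKM (log2 fold change 1.09, interval 0.73 to 1.46), on chromosome 6 from 17988940 to 18030585. Wnt7b, one of the ligands that the study followed by RT-PCR, had 548 and 660 counts (0.55, interval 0.38 to 0.72). Wnt9a had 162 and 188 counts (0.50, interval 0.18 to 0.81). Wnt10a, the other ligand followed by RT-PCR, had 497 counts in control and 454 in stretched skin, with a difference in CPM within counting error (0.15, interval -0.036 to 0.34). With TMM scaling its interval lay above 0 (0.067 to 0.44). Wnt4 (982 and 775 counts), Wnt3 (499 and 413) and Wnt9b (4 and 4) also had intervals that included 0. Wnt4 was the most abundant ligand per length in both libraries (16.5 and 15.9 FPKM) and Wnt10a came next (14.2 and 15.8 FPKM). Below them the order differed between the libraries. Wnt11 and Wnt5a ranked 4 and 5 in control skin and 7 and 10 in stretched skin, whereas Wnt7b ranked 6 and then 3, and Wnt2 ranked 12 and then 5. The summed level of all ligands was 97.4 FPKM in control and 87.3 FPKM in stretched skin.

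**Figure D2:**
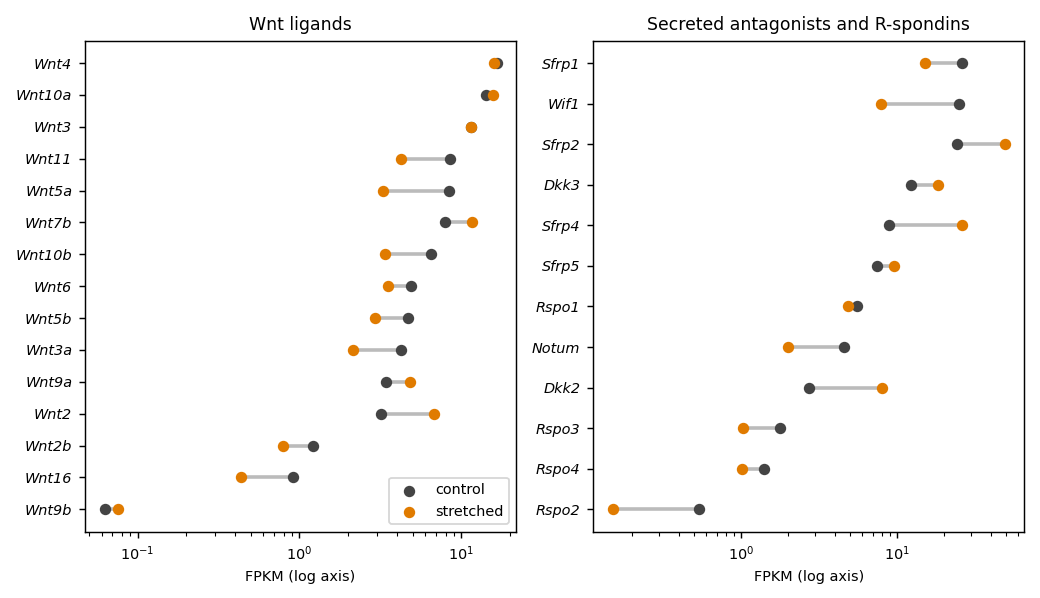
FPKM (x axis, log scale) of Wnt ligands and of secreted antagonists with R-spondins in control (grey) and stretched (orange) skin, ordered by the control level. Genes with 3 counts or fewer in 1 library (Wnt7a, Wnt8a, Dkk1, Dkk4) are left out; Wnt5a and Wnt11 lie lower in stretched skin, and Wnt2, Sfrp2, Sfrp4 and Dkk2 lie higher.

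Several Wnt genes lie side by side in the genome, and neighbours did not always differ alike. Wnt3a and Wnt9a lie on chromosome 11 at 59248033 to 59290752 and 59306928 to 59333552, on opposite strands with 16175 bases between them. Wnt3a was lower in stretched skin and Wnt9a was higher, with intervals on opposite sides of 0. On chromosome 1, Wnt6 (74771892 to 74785322) and Wnt10a (74791516 to 74804179) share a strand with 6193 bases between them, and their log2 fold changes were -0.48 and 0.15. In the pair Wnt10b and Wnt1 on chromosome 15, Wnt10b was measured and Wnt1 had 0 counts in control and 1 in stretched skin. Wnt9b, beside Wnt3 on chromosome 11, had 4 counts in each library while Wnt3 had 499 and 413. Porcn, which encodes the enzyme that attaches the lipid to all Wnt proteins, had 193 and 169 counts (0.089, interval -0.22 to 0.39).

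The receptors were lower almost throughout. Of the 10 Frizzled genes, Lrp5 and Lrp6, the interval lay below 0 for 9 of 12 (75%, against 33.5% of all measured genes) and above 0 for 0 (against 18.1%), and the median was -0.57. Fzd5 had the largest difference, with 739 counts in control and 239 in stretched skin (log2 fold change -1.35, interval -1.56 to -1.14), or 7.55 and 2.97 FPKM. It lies on chromosome 1 from 64730558 to 64737751, and an annotated antisense gene, Gm38058, covers 17.8% of its exon bases, so reads of the 2 genes cannot be told apart without strand. Fzd10 had 954 and 427 counts (-0.88, interval -1.05 to -0.71). Fzd4, known as the receptor of the non-Wnt ligand norrin in vessels, had 591 and 281 counts (-0.79, interval -1.002 to -0.58).

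Fzd7 (1909 counts in control and 924 in stretched skin), Fzd6 (1119 and 569), Fzd3 (353 and 191) and Fzd1 (2773 and 1579) followed, with log2 fold changes of -0.77, -0.69, -0.61 and -0.53. Fzd6 and Fzd3 are known for the orientation of hair follicles. Fzd2 had 933 and 661 counts (-0.22, interval -0.36 to -0.071), and its interval included 0 with TMM scaling. The co-receptor gene Lrp6 had 1986 and 1302 counts (-0.33, interval -0.43 to -0.23). Its relative Lrp5, with 1637 and 1263 counts, had an interval that included 0 (-0.093, interval -0.20 to 0.013). Fzd8 (111 and 102 counts) and Fzd9 (43 and 29) had intervals on both sides of 0, and Fzd8 was the only receptor gene with a higher value with scaling by total counts (0.16). Lrp5 also had a value above 0 with TMM scaling (0.0097). Per length, Fzd1 led in both libraries (46.7 and 32.3 FPKM) and Fzd7 was second (29.8 and 17.5 FPKM). The summed Frizzled level was 150.0 FPKM in control and 97.1 FPKM in stretched skin, while the share of Fzd1 in it was 31.1% and 33.3%.

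Among the secreted antagonists, Dkk2, Sfrp4 and Sfrp2 were higher in stretched skin, and Wif1, Notum and Sfrp1 were lower. Of 10 genes, the interval was above 0 for 5 (50%, against 18.1% of all measured genes) and below 0 for 3 (30%, near the 33.5% of all), with a median of 0.48. This median rests on which antagonists the names take in. Frzb, a further Frizzled-related protein with 127 counts in control and 54 in stretched skin (-0.95), Sostdc1 (-1.01) and Sost (8 and 2 counts) are outside the 10 genes, and with them 5 intervals of 13 lay above 0 and 5 below. The median of the 13 was -0.46, which is the value of Dkk4 set by the floor, and it was -0.21 over the 10 of them with at least 20 counts. Dkk2, whose protein binds Lrp5 and Lrp6, had 143 counts in control and 347 in stretched skin, or 2.73 and 8.04 FPKM. Its log2 fold change was 1.56 (interval 1.27 to 1.85), the largest among the members with at least 20 counts, and it lies on chromosome 3 from 132085292 to 132180304. Sfrp4, a Frizzled-related protein that binds Wnt ligands outside the cell, had 529 and 1263 counts (1.54, interval 1.39 to 1.69), or 8.94 and 25.9 FPKM, on chromosome 13 from 19623104 to 19632994. Sfrp2, of the same family, had 737 and 1231 counts (1.02, interval 0.89 to 1.15). Its level of 49.1 FPKM in stretched skin was the highest of the antagonists, against 24.2 FPKM in control skin. The antisense gene Gm26771 covers 16.1% of its exon bases.

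Dkk3, a divergent member of its family, had 581 counts in control and 714 in stretched skin (0.58, interval 0.42 to 0.74). Sfrp5 had 199 and 212 counts (0.37, interval 0.086 to 0.66). Dkk1, the best known inhibitor of the family, was close to the floor in both libraries. With 2 counts in control and 7 in stretched skin, its log2 ratio without a floor was 2.09 with an interval that included 0 (-0.30 to 5.39). Dkk4 had 5 counts in control and 0 in stretched skin, at least 1.37-fold lower against the floor, and its interval reached above 0 (up to 0.41).

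On the lower side, Wif1, which binds Wnt ligands directly, had 852 counts in control and 224 in stretched skin (log2 fold change -1.65, interval -1.87 to -1.43), or 24.8 and 7.92 FPKM. It lies on chromosome 10 from 121033960 to 121100650. Sfrp1 had 1620 and 769 counts (-0.79, interval -0.92 to -0.67), the opposite direction to Sfrp2, Sfrp4 and Sfrp5. Notum, which encodes the enzyme that removes the lipid from Wnt proteins and is itself a target of β-catenin, had 155 and 56 counts (-1.19, interval -1.66 to -0.74). Exons of 2 antisense genes, Notumos and Myadml2os, cover 38.1% of the Notum exon bases, so its value is uncertain. The leading Sfrp gene per length thus differed between the libraries. Sfrp1 made up 39.2% of the summed Sfrp level in control and 15.1% in stretched skin, while Sfrp2 made up 36.3% and 49.2% and Sfrp4 13.4% and 26.0%. The summed Sfrp level was 66.7 FPKM in control and 99.7 FPKM in stretched skin.

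**Figure D3:**
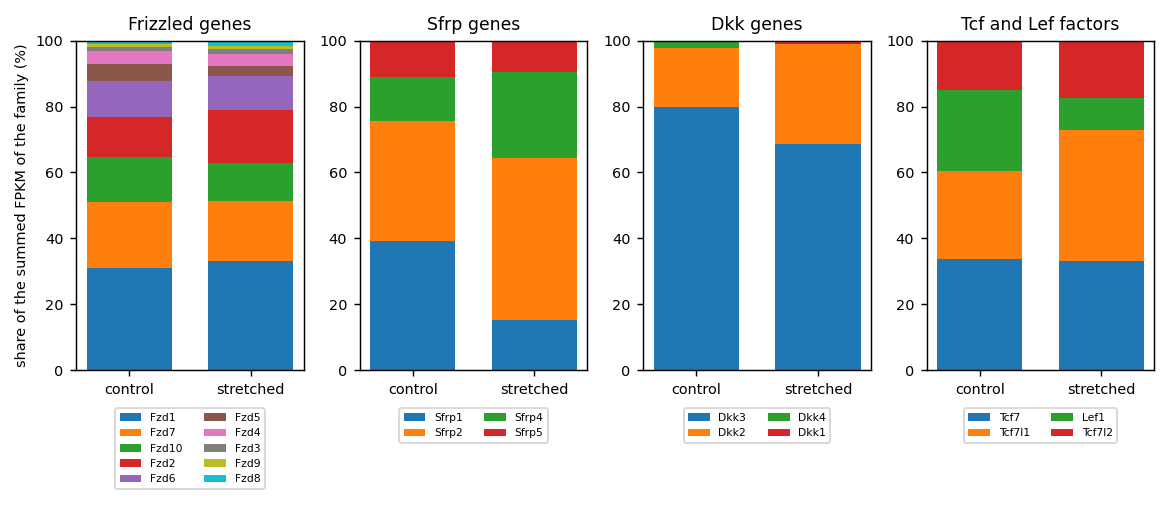
Share of each gene in the summed FPKM of its family (y axis, %) in control and stretched skin for Frizzled, Sfrp, Dkk and Tcf/Lef genes. The Sfrp1 share is 39.2% in control and 15.1% in stretched skin, the Lef1 share is 24.7% and 9.91%, and Fzd1 and Fzd7 lead the Frizzled genes in both.

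R-spondins strengthen Wnt signals by sparing Frizzled receptors from removal. All 4 had lower values in stretched skin, as 61.5% of all measured genes did, with intervals below 0 for 2 of them (50%, against 33.5%). Rspo2 had 39 counts in control and 9 in stretched skin (log2 fold change -1.83, interval -3.07 to -0.77), and Rspo3, of whose exon bases the antisense gene Gm48159 covers 13.1%, had 78 and 37 (-0.80, interval -1.40 to -0.21). Rspo1, the most abundant per length (5.58 and 4.83 FPKM), had 153 and 109 counts and an interval that included 0 (-0.21, interval -0.58 to 0.16). Rspo4, with 47 and 28 counts, also had an interval on both sides of 0 (-1.20 to 0.24).

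Inside the cell, Lef1 stood apart from its relatives. Of the 7 effector genes, 5 had intervals below 0 (71.4%, against 33.5% of all measured genes) and 0 above (against 18.1%), with a median of -0.51, which was -0.26 without Lef1 and Ctnnb1, the 2 of them with at least 10% of their sequence, in stretches of 76 bases, also in transcripts of other genes. Lef1 encodes a nuclear partner of β-catenin that is abundant in the hair matrix and dermal papilla, and the study followed it by RT-PCR. It had 783 counts in control and 185 in stretched skin, or 6.30 and 1.81 FPKM. The log2 fold change was -1.80 (interval -2.04 to -1.57), a level 3.48-fold lower, and the gene lies on chromosome 3 from 131110471 to 131224356. An antisense gene, Gm43352, covers 13.7% of its exon bases. Tcf7 had 318 and 184 counts (-0.51, interval -0.78 to -0.24) and Tcf7l2 had 470 and 322 (-0.26, interval -0.47 to -0.057), an interval that included 0 with TMM scaling. Tcf7l1, known as a repressor in follicle stem cells, had 379 counts in control and 332 in stretched skin, a difference in CPM within counting error (0.090, interval -0.13 to 0.31). The Lef1 interval did not overlap those of the 3 Tcf7 genes. In the summed level of these 4 factors, the share of Lef1 was 24.7% in control and 9.91% in stretched skin, and that of Tcf7l1 was 26.8% and 39.8%.

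Ctnnb1, the gene of β-catenin, was the most abundant of the 51 genes, with 13028 and 7159 counts or 177 and 118 FPKM (-0.58, interval -0.62 to -0.54). β-catenin also joins cells at adherens junctions, and exons of the opposite-strand gene Ulk4 and of a microRNA gene cover 15.1% of the Ctnnb1 exon bases. Axin2, a feedback inhibitor that is a common readout of β-catenin signalling, had 742 and 414 counts (-0.56, interval -0.74 to -0.39). Axin1, its constitutive relative in the β-catenin destruction complex, had 838 and 647 counts and an interval that included 0 (-0.092, interval -0.24 to 0.057). The interval of Axin2 lay wholly below that of Axin1.

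Further genes of the pathway, from lists fixed by symbol, were mostly lower as well. Of 54 other pathway genes, 47 had a lower value (87.0%, against 61.5% of all measured genes), and the median was -0.35. The interval lay below 0 for 35 (64.8%, against 33.5%) and above 0 for 3 (5.56%, against 18.1%). Those above 0 were Btrc (0.30), Dact3 (0.42) and Gpc3 (0.13). Nkd2, an intracellular inhibitor of Dishevelled, had 1037 counts in control and 383 in stretched skin (-1.16, interval -1.33 to -0.99). Sostdc1, a secreted inhibitor of Wnt and BMP signals in the follicle, had 792 and 324 counts (-1.01, interval -1.20 to -0.82). Of 12 target genes outside the 51, the interval was below 0 for 9 (75%, against 33.5%) and above 0 for 1 (8.33%, against 18.1%; Fst, 0.26), with a median of -0.46. Bambi had 828 and 185 counts (-1.88, interval -2.12 to -1.65) and Bmp4 had 454 and 183 (-1.03, interval -1.29 to -0.78). Both are also known from BMP signalling. Apcdd1, Lgr5, Nkd1, Rnf43 and Znrf3 are in both lists.

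Marker genes of the cells that whole-layer skin holds differed between the libraries beside these groups. The 8 dermal papilla genes were all lower (median -0.73, with 5 intervals below 0, 62.5% against 33.5% of all measured genes), with summed levels of 108.6 and 59.2 CPM, and Corin (-1.36) and Hhip (-1.32) differed by over 2-fold. The 5 adipocyte genes were all lower (median -0.78), where 61.5% of all measured genes were. Of the 6 genes listed for the bulge, 4 had intervals below 0 (66.7%, against 33.5%) and 2 above (33.3%, against 18.1%), with a median of -0.34. Among the 4 is Tcf3 (-0.23), which by this symbol is the E2A gene and no bulge marker. The follicle stem cell factor often called TCF3 is Tcf7l1, whose interval included 0 (0.090, interval -0.13 to 0.31). The count and the median of this list thus hold a gene that does not belong to it. The 6 genes listed for keratinocytes of the epidermis, not all of which are confined to it, had a median of 0.083. Their summed levels were 14894 CPM in control and 15852 CPM in stretched skin. All 7 fibroblast genes had intervals above 0, as 18.1% of all measured genes did, with values from 0.056 to 1.003 (Col1a1), and the 6 macrophage genes had a median of 1.34. Pericyte and smooth muscle genes had a median of 0.51 over 5 genes, endothelial genes 0.31 over 5, Schwann cell genes 0.17 over 5 and T cell genes 0.42 over 3. The interval included 0 for 2 of the endothelial, 3 of the Schwann cell and 2 of the T cell genes, and it lay below 0 for 1 endothelial gene (Kdr). The 6 skeletal muscle fibre genes went both ways (median -0.38), with the myosin genes Myh4 at 91029 and 3156 counts (-4.57) and Myh1 at 31133 and 54759 counts (1.10), and Ckm at -1.05. The 5 myogenic genes had a median of 1.24. Lef1 lay within the range of the hair matrix, shaft and inner root sheath genes (median -2.50), and Wif1, by a margin below the rounding used here, Wnt5a and Fzd5 had log2 fold changes nearer to 0 than each gene of that list. The part of these cell types in the differences of the Wnt genes was not tested.

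**Figure D4:**
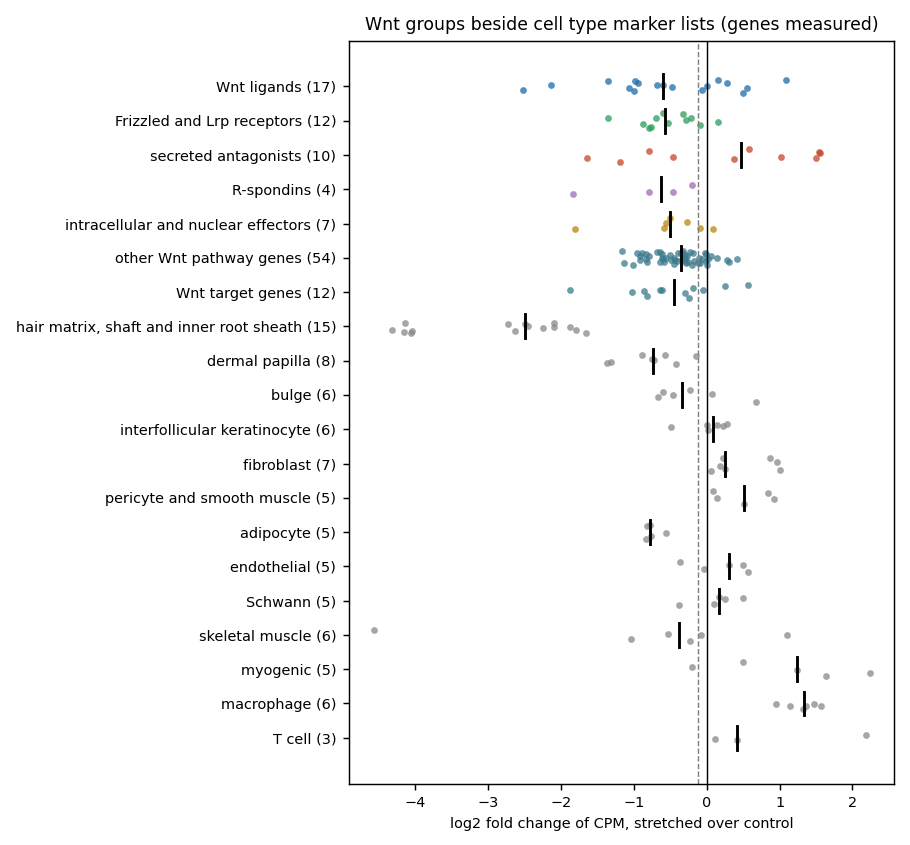
Log2 fold change of CPM in stretched over control skin (x axis) for each gene of the Wnt groups, the 2 further pathway lists and the cell type marker lists, with the number of genes measured in brackets. Black bars are medians and the dashed line is the median of all measured genes; hair matrix, shaft and inner root sheath genes have the lowest median (-2.50) and macrophage genes the highest (1.34).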

How the data were processed

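RNA from whole-layer back skin was sequenced with 1 library per condition, with single-end reads of 76 bases. After alignment by TopHat2 to mm10, the authors deposited a raw count per gene symbol (14152379 counts in the control and 11648655 in the stretched library). The counter, its annotation and its use of shared reads are not given in the sources used here, and the library kit named in the labels does not keep strand. The members and lists were chosen with earlier results of these data known.

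From the counts, CPM and FPKM were computed with total counts and GENCODE M21 union exon lengths (23384 symbols matched by name, 661 by synonym, 376 unmatched). Counts of 3 or fewer were set to 3 in fold changes. Intervals are exact Clopper-Pearson intervals, and their coverage was checked on simulated data. Genes past 2-fold in CPM, genes whose interval excludes 0, and Wnt7b, Wnt10a and Lef1 were named with values, the other members with counts. Of the 2 further pathway lists, genes past 2-fold with at least 20 counts over both libraries were named, and genes with intervals above 0 were added after their values were seen. Marker lists are given mostly by medians and counts for brevity, though the same rule names their genes. As alternatives, other pseudocounts, EV limits and count limits were tried, and libraries were scaled by median of ratios (DESeq2 1.42.0), by TMM or upper quartile (edgeR 4.0.16), or by their totals after removal of the top 50 genes. Python 3.11.15, scipy 1.17.1 and R 4.3.3 were used.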

Additional observations from a re-analysis of the deposited data

How the results depend on the processing

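The scaling alternatives shift every log2 fold change by 0.06 to 0.11. The median over the 51 Wnt genes was -0.48 with total counts and between -0.51 and -0.36 in the alternatives run. The medians of the 5 roles and the 2 further lists kept their sign in the alternatives run, except that the antagonists' median, 0.48, was -0.46 with Frzb, Sost and Sostdc1 joined, a value set by the floor for Dkk4, and -0.21 when these were limited to genes with at least 20 counts (both chosen after seeing the data). The number of upregulated genes, 2 in the report, was 1 with EV above 100 (Sfrp4), 4 with a pseudocount of 0 and 4 with a pseudocount of 0.1 (Sfrp2 and Wnt2 added). The number of downregulated genes, 4 in the report, was 1 with EV above 100 (Wif1), since fewer genes are tested, and 2 when the 5 members with 10% or more of their sequence stretches of 76 bases also in transcripts of other genes were removed, Lef1 and Fzd5 among them (chosen after seeing the data). Of 435 values of 87 genes chosen by the naming rule, most of them for an interval off 0 or a 2-fold difference, 70 moved beyond their counting intervals, 69 of them with scaling. Axin1, Lrp5 and Wnt4, which that rule leaves out, changed sign with TMM. No paired analysis was possible because each condition has a single library, which also means that leaving out a library gives no value. Depth limits Wnt7a, Wnt8a, Wnt9b, Dkk1 and Dkk4 most.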
